A study of Mus musculus with 36 samples.

Results

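The genes described here are 33 genes of the cell cycle and of DNA replication, chosen by name: cyclins and their kinase, regulators of mitosis, the licensing factors and helicase subunits that prepare and drive replication, enzymes that supply deoxynucleotides, and the genes that govern entry into S phase. The choice was made with earlier results of these data known. Each gene was read from the brightest of its array probes. A probe was found for 30 of the 33 genes, of 16593 genes with a probe in the whole series, and Ccnb1, Mki67 and Aurkb were not analysed here. Of the 30 genes, 21 lay above the background of the arrays and 19 passed the filter for testing.

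Total RNA was taken from the livers of 36 male C57BL/6J mice, 9 weeks old, and hybridized to Illumina expression beadchips with 1 array per mouse. The question was how the diet of the dam and the diet after weaning alter expression in the adult offspring. In the name of each group the dam's diet stands before the pup's own diet after weaning, and HF and LF mean high fat and low fat. Mice born from HF fed dams were fed HF after weaning in the HF_HF group (10 mice from 4 cages) and LF in the HF_LF group (9 mice from 5 cages). Mice born from LF fed dams were fed HF in the LF_HF group (8 mice from 4 cages) and LF in the LF_LF group (9 mice from 4 cages). Females were on their diet before mating and stayed on it until the pups were weaned, the males they were mated with ate the same diet, and coconut oil was the main fat of both diets. The HF diet was also lower in carbohydrate, so effects of fat and of carbohydrate cannot be told apart. Each of the 12 labelled cages had dams of 1 diet. The labels give a cage number and not its meaning. It was taken as the cage of birth because mice of both post-weaning diets share a number.

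A cell that enters the division cycle makes D-type cyclins in response to growth signals, which leads to the release of E2F transcription factors from the retinoblastoma proteins and to the expression of replication genes. Licensing factors load the MCM helicase on replication origins before S phase, and the genes of mitosis follow late in the cycle, largely under control of FOXM1 and of the DREAM and MuvB complexes. Most hepatocytes of an adult liver are quiescent but can return to the cycle after loss of tissue. In bulk tissue, fewer cells of a type and less RNA per cell cannot be told apart.

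Levels are quantile-normalized intensities, which hold the background glow of the array, and 69.35 was taken as the background level, the 95th percentile of 1359 probes for smell, pheromone and taste receptors, whose median was 61.55. A gene was tested where its median over the 36 mice reached 71.5, the median of all values. Ccnd1 had the brightest signal of the 30 genes (median 445), followed by Tk1 (386), Cenpa (353), Tyms (229), Mcm4 (187) and Cdt1 (118). The other 13 tested genes had medians between 73.0 and 102, within a narrow band over background. Mcm3 (73.0), Foxm1 (73.8) and Plk1 (73.95) lay just inside the filter, Ccne2 (71.1) and Mcm7 (69.8) were above background but not tested, and Top2a (69.15), Bub1b (68.9) and Pcna (68.35) lay just below background. Brightness differs between probes for reasons other than the amount of RNA, so it does not rank the genes by transcript number.

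By role, all 3 genes of deoxynucleotide supply and all 4 genes of S phase entry were above background. So were 7 of 10 genes of licensing and the replication fork and 5 of 11 genes of mitosis and chromosome segregation. Of the 5 genes grouped as mitotic cyclins and their kinase, 2 were above background, the kinase Cdk1 and the transcription factor Foxm1, and no cyclin. Ccna2 (median 57.7) and Ccnb2 (58.55), the cyclins that activate CDK1, were below the receptor median, as were Gmnn (58.55), the inhibitor of licensing, and Bub1 (61.5), a spindle checkpoint kinase. Cdc6, a licensing factor, and Kif11, a spindle motor, were also not above background. An intensity at background gives no order between groups, so these 9 genes are described no further.

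**Figure D1:**
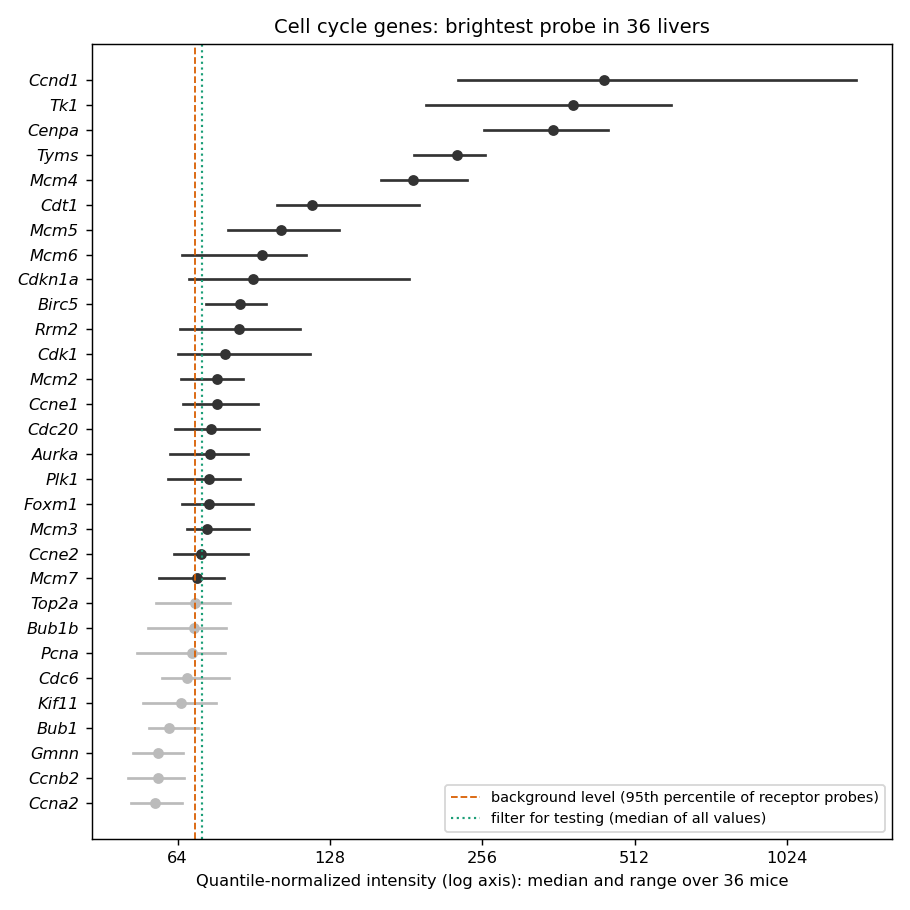
Quantile-normalized intensity (log axis) of the brightest probe of the 30 genes with a probe; points are medians and lines ranges over 36 mice, dark for the 21 genes above background and grey for the 9 others. The dashed line marks the background level of 69.35 and the dotted line the filter of 71.5, and Ccnd1, Tk1, Cenpa, Tyms, Mcm4, Cdt1, Mcm5 and Birc5 lay above both in every mouse.

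The tissue label was checked against marker genes. Of 8 hepatocyte markers, 6 were above background, with a summed intensity of 60207 to 75757 over the mice, whereas the probes for Fabp1 and Tat were not above background. The sum rests mostly on its brightest probes: group medians were 25584 to 27718.5 for Apoa1, but only 169 to 213.5 for Alb. Markers of Kupffer cells, endothelium, stellate cells, lymphocytes, erythroid cells, bile duct and neutrophils were also above background in part. Among tested cell type markers, 0 of 44 passed in the maternal comparisons, in the interaction and in the post-weaning comparison in pups of LF dams, and 3 passed in pups of HF dams (limma). At an unadjusted p under 0.05 there were 5 for the maternal effect on LF, 4 for that on HF and 1 for the interaction. In pups of LF dams there were 8, and in pups of HF dams 13. Over all 8535 genes tested the counts were, in the same order, 592, 968, 556, 1493 and 2156 (limma). In pups of HF dams 11.8% of all genes passed in either direction.

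The post-weaning diet was compared first in mice born from HF fed dams (HF_HF, n = 10, against HF_LF, n = 9). Of the 19 tested genes, 8 fell in mice fed HF after weaning and 0 rose (limma with Benjamini-Hochberg adjustment over all 12289 tested probes, threshold 0.05). They were Cdt1, Cdk1, Rrm2, Mcm6, Cenpa, Tyms, Plk1 and Ccnd1, and they came from all 5 roles. Among all 8535 genes tested, 6.41% fell and 11.8% passed in either direction. The log2 difference was below 0 for 17 of the 19 genes and had a median of -0.09, against -0.0051 over all genes tested, and it ranged from -0.85 for Ccnd1 to 0.22 for Tk1. The intensities were not background-subtracted, so these differences may understate the change of dim genes. With the receptor median subtracted from every value and results under 8 set to 8, Cdk1 differed by -1.30 instead of -0.36. Rrm2 differed by -1.02 instead of -0.29, Plk1 by -0.74 instead of -0.15 and Mcm6 by -0.81 instead of -0.26. Cdt1 differed by -0.72 instead of -0.37, and the same 8 genes passed. The setting to 8 applied to the lowest HF_HF mice for Cdk1, Rrm2, Plk1 and Mcm6, whose values lay below the background level. The size of the subtracted differences therefore depends on the level subtracted and on that limit, and is not an estimate of the true change.

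The count rested in part on single cages. With 1 mean per cage and group, 2 genes passed (Cdt1 and Rrm2), without cage 23 the count was 3 (Cdk1, Cdt1 and Rrm2), and without cage 20 or without cage 21 it was 5 each. In the same comparison, all 9 tested endothelial markers lay below 0 (median log2 difference -0.18), and Tek and Oit3 fell (-0.31 and -0.41, limma adjusted p = 0.000992 and 0.00155). The summed intensity of the 9 endothelial markers above background, of 10 listed, ran from 4265 to 6406 in HF_HF mice and from 5507 to 7055 in HF_LF mice, and Kdr was not above background. Their part in the fall of the cell cycle genes was not tested. The erythroid marker Alas2 rose (0.30, limma adjusted p = 0.0325), with summed erythroid intensities of 1297 to 1975 in HF_HF mice and 1148 to 1646 in HF_LF mice for the 3 of 6 listed markers above background, and its part was not tested either. Summed lymphocyte markers (6 of 11 above background) ran from 459 to 517 in HF_HF mice and from 458 to 576 in HF_LF mice, with Cd79a, Ms4a1, Cd8a and Ptprc not above background and 0 of 6 past the test (limma, 2 at an unadjusted p under 0.05). Summed neutrophil markers (3 of 7 above background, with Ngp, Ltf, Mpo and Camp not) ran from 255 to 1214 in HF_HF mice and from 220 to 454 in HF_LF mice, and 0 of 3 passed (limma, 2 at an unadjusted p under 0.05). Summed stellate markers (8 of 9 above background, Col1a2 not) ran from 4314.5 to 6083 in HF_HF mice and from 5294 to 6282 in HF_LF mice. Of 7 tested stellate markers 6 lay below 0 and 1 above, and 0 passed (limma). Of 6 tested hepatocyte markers 4 lay below 0 and 2 above, and of 9 Kupffer cell markers 4 and 5, with 0 past the test in either (limma). The part of these cells was not tested.

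The promoters of 6 of the 8 genes that fell in HF_HF against HF_LF are shown. Regulators of cell cycle genes are known to act through short elements near the start site. The promoter of Tyms, which held none of the elements searched for, is not printed. Promoters of 300 bases, from 250 before the start to 50 after it, came from RefSeq (GRCm38.p6) and 28 promoters were matched for 26 of the 33 genes (2 each for Mcm7 and Cdkn1a), Ccnd1 not among them. They were searched on both strands for the cell cycle homology region (CHR; TTTGAA or TTCGAA), the CCAAT box (CCAAT) and E2F sites (TTTGGCGC, TTTCCCGC, TTTGGCGG or TTTCGCGC), and capitals mark these letters or their reverse complement. Printed are the 200 bases from 150 before the start, read in the direction of the gene.
Cdk1, chr10:69352863-69353062, minus strand: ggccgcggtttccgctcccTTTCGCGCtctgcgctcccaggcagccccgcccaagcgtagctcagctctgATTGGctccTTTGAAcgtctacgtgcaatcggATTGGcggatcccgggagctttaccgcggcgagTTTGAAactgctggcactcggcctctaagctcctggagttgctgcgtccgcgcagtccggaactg
Plk1, chr7:122159285-122159484, plus strand: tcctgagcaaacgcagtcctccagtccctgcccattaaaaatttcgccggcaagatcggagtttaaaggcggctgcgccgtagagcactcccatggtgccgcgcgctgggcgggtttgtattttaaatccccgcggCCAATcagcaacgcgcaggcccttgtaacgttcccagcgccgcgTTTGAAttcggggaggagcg
Cenpa, chr5:30666736-30666935, plus strand: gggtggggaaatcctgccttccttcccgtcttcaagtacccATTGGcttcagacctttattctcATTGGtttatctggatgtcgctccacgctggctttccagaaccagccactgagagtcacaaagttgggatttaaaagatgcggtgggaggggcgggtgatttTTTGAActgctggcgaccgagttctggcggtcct
Mcm6, chr1:128359656-128359855, minus strand: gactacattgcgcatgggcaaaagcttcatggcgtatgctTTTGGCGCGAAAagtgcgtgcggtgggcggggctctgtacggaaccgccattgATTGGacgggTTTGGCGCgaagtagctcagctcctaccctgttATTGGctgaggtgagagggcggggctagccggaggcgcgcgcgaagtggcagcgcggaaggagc
Cdt1, chr8:122567865-122568064, plus strand: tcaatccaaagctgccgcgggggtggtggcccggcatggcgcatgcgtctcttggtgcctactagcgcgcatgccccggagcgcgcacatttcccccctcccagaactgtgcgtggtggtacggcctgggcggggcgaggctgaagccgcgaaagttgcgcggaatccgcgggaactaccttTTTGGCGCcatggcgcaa
Rrm2, chr12:24708104-24708303, plus strand: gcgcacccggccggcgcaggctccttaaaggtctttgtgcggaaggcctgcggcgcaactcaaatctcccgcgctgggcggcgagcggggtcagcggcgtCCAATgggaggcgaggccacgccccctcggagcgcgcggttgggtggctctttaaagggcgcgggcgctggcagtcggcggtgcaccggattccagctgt

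A CHR element was found in 13 of the 28 promoters, against 19.2% of all 32851 promoters of the same length, a CCAAT box in 20, against 37.4%, and an E2F site in 7, against 2.37%. Of the 7 genes that fell and had a promoter, Cdk1, Plk1 and Cenpa held a CHR and 5 held a CCAAT box. Cdk1, Cdt1 and Mcm6 held an E2F site, while Tyms held none of these letters. Of all 26 genes with a promoter, whether they fell or not, 13 held a CHR, 19 a CCAAT box and 7 an E2F site. Cdk1 held CHR letters at positions -71 and -15 from the start, CCAAT letters on the opposite strand at -80 and -48, and TTTCGCGC at -131. In Mcm6, TTTGGCGC stood at -110 and at -47, and the copy at -110 overlapped TTTCGCGC of the opposite strand at -106. In Cdt1 the E2F letters lay behind the start, at 32, and in Plk1 and Cenpa the CHR letters lay at 30 and 16. A match describes the letters of the window and not a site in use.

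Cdk1 is the kinase that drives entry into mitosis. Its intensity had a lowest, median and highest value of 64.0, 74.0 and 86.6 in HF_HF mice, against 74.5, 94.5 and 117 in HF_LF mice. All 10 HF_HF mice lay below the HF_LF median, and 7 of 9 HF_LF mice lay above every HF_HF mouse. The difference was -0.36 ± 0.08 (log2 difference ± SE, fold 0.779, limma adjusted p = 0.00445). Its dimmer probes, both below the filter, differed by -0.10 and 0.01. Foxm1, the transcription factor of mitotic genes, did not pass (limma adjusted p = 0.366), with medians of 72.9 in HF_HF mice and 75.7 in HF_LF mice.

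Among the genes of mitosis, Plk1, a kinase of centrosome and spindle function, had intensities of 61.3, 70.85 and 74.3 in HF_HF mice, against 71.5, 76.3 and 85.2 in HF_LF mice (lowest, median, highest). In 8 of 9 HF_LF mice it was above the highest HF_HF mouse, and in 5 of 10 HF_HF mice below the lowest HF_LF mouse. Plk1 fell by 0.15 on the log2 scale (SE 0.04, limma adjusted p = 0.016). Its HF_HF median lay below the filter of 71.5, and its lowest HF_HF values lay below the background level of 69.35. Plk1 passed the filter through the other groups, so this fall stands at the edge of detection. Cenpa, the histone variant that marks centromeres, was brighter, at 258, 299 and 403 in HF_HF mice and 317, 394 and 453 in HF_LF mice. In 6 of 10 HF_HF mice it was lower than in any HF_LF mouse. Cenpa fell by 0.29 (SE 0.09, limma adjusted p = 0.0355), a call that was lost without 11 of the 19 mice taken singly (limma adjusted p up to 0.0791). Birc5 (survivin) and Aurka, a mitotic kinase, did not pass, with medians of 85.25 and 71.45 in HF_HF mice and 85.4 and 75.7 in HF_LF mice. Cdc20, the activator of the anaphase promoting complex, differed by -0.03 on its brightest probe (limma adjusted p = 0.831) and by -0.23 on a probe of nearly the same brightness (limma adjusted p = 0.0221).

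The licensing factor Cdt1, which loads the MCM helicase on origins, had the lowest p in this role. Its intensity was 101, 113 and 128 in HF_HF mice, against 123.5, 133 and 192 in HF_LF mice (lowest, median, highest). Only 1 HF_HF mouse reached the HF_LF range, and 8 of 9 HF_LF mice lay above all HF_HF mice. Cdt1 fell by 0.37 (SE 0.07, fold 0.772, limma adjusted p = 0.00188). Of the helicase subunits, Mcm6 had 65.2, 86.5 and 96.0 in HF_HF mice, against 82.8, 103 and 114.5 in HF_LF mice, and fell by 0.26 (SE 0.06, limma adjusted p = 0.00777). In 7 of 9 HF_LF mice it was above every HF_HF mouse, and in 2 of 10 HF_HF mice below every HF_LF mouse. Its dimmer tested probes differed by -0.13 and -0.12 and did not pass (limma adjusted p = 0.185 and 0.338). The other subunits tested did not pass: Mcm4 differed by -0.08 ± 0.06, and Mcm2, Mcm3 and Mcm5 had medians of 75.55, 72.15 and 99.0 in HF_HF mice and 77.2, 72.6 and 104.8 in HF_LF mice.

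Among the enzymes of deoxynucleotide supply, Rrm2, the regulated subunit of ribonucleotide reductase, had 64.8, 78.9 and 90.0 in HF_HF mice, against 86.5, 94.5 and 111.6 in HF_LF mice (lowest, median, highest). In 9 of 10 HF_HF mice it was below every HF_LF mouse. Rrm2 fell by 0.29 (SE 0.06, fold 0.818, limma adjusted p = 0.0016) and by 0.20 on its dimmer probe (limma adjusted p = 0.0309). Tyms, which makes thymidylate, had 188, 207 and 227 in HF_HF mice, against 224, 233 and 259 in HF_LF mice, and here too 9 of 10 HF_HF mice lay below every HF_LF mouse. Tyms fell by 0.19 (SE 0.05, limma adjusted p = 0.0132), whereas a dimmer tested probe differed by -0.13 (limma adjusted p = 0.155). Tk1, the thymidine kinase of the salvage pathway, lay the other way, at 327, 414 and 495 in HF_HF mice and 198, 349 and 578 in HF_LF mice. Its difference of 0.22 ± 0.14 did not pass on the brightest probe (limma adjusted p = 0.371), while one of its dimmer probes rose by 0.21 (limma adjusted p = 0.00542).

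Ccnd1 encodes cyclin D1, the growth-signalled cyclin of early G1, and showed the largest difference of the 19 genes and the widest spread. Its intensity was 229, 328 and 490.2 in HF_HF mice, against 321.5, 535 and 1403 in HF_LF mice (lowest, median, highest). All 10 HF_HF mice lay below the HF_LF median, and 5 of 9 HF_LF mice lay above every HF_HF mouse. Ccnd1 fell by 0.85 (SE 0.25, fold 0.556, limma adjusted p = 0.028), and its dimmer probes fell by 0.90 and 0.60 (limma adjusted p = 0.0132 and 0.0308). The call was lost without HF_LF replicate 4, 5, 6 or 7 (limma adjusted p up to 0.0629) and without cage 20, 21 or 23, and the log2 difference was -0.59 without cage 23 (limma adjusted p = 0.23). Cdkn1a, which encodes the kinase inhibitor p21, lay in the same direction as Ccnd1, at 67.4, 85.75 and 106.8 in HF_HF mice and 79.1, 99.1 and 183 in HF_LF mice, with a difference of -0.32 ± 0.12 that did not pass (limma adjusted p = 0.0962). Ccne1, a cyclin of the G1 to S transition, did not pass (limma adjusted p = 0.233).

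**Figure D2:**
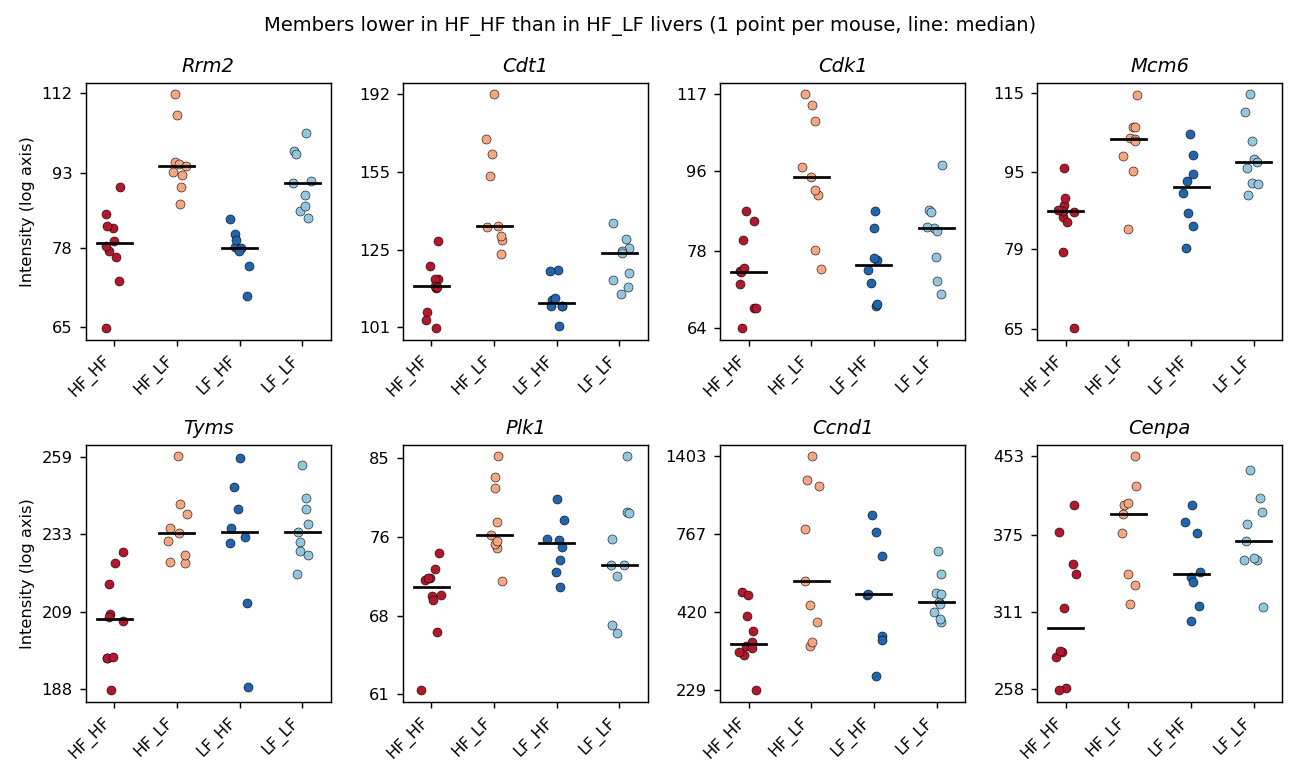
Intensity (log axis) of the 8 genes that fell in HF_HF mice, with 1 point per mouse and a line at each group's median, for HF_HF, HF_LF, LF_HF and LF_LF livers. HF_HF points lie low in each panel, LF_HF points lie about as low for Rrm2, Cdt1 (LF_HF median 108.1) and Cdk1 (75.3), and the Ccnd1 points of HF_LF spread up to 1403.

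In mice born from LF fed dams (LF_HF, n = 8, against LF_LF, n = 9), 1 of the 19 genes, Rrm2, fell with the HF diet and 0 rose. Over all genes tested, 1.42% fell and 3.41% passed in either direction. Rrm2 had 69.8, 78.15 and 83.5 in LF_HF mice, against 83.8, 90.9 and 101.9 in LF_LF mice (lowest, median, highest). Every LF_HF mouse lay below every LF_LF mouse. Rrm2 fell by 0.23 (SE 0.05, fold 0.852, limma adjusted p = 0.00731), and the call was lost with 1 mean per cage and group, with cage as a fixed block and without cage 9 (limma adjusted p = 0.0598 without cage 9). The median log2 difference of the 19 genes was -0.03, against 0.0005 over all genes tested, and 12 of 19 were below 0.

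Cdt1 had the next lowest p in this comparison, at 101.5, 108.1 and 118.3 in LF_HF mice and 110.8, 124.1 and 134.5 in LF_LF mice. In 6 of 8 LF_HF mice it was below every LF_LF mouse, but the difference of -0.15 ± 0.05 did not pass (limma adjusted p = 0.104). Cdc20 followed, at 63.2, 69.6 and 76.9 in LF_HF mice and 65.0, 76.7 and 88.4 in LF_LF mice, with a difference of -0.13 ± 0.06 (limma adjusted p = 0.236). Another Cdc20 probe, of nearly the same brightness, differed by -0.0039 (limma adjusted p = 0.981). Cdk1 differed by -0.12 ± 0.06 (limma adjusted p = 0.372) and Mcm6 by -0.12 ± 0.06 (limma adjusted p = 0.306). Ccnd1 had 256, 482 and 889 in LF_HF mice and 387, 454 and 674.5 in LF_LF mice, with overlapping ranges and a difference of 0.04 ± 0.20 (limma adjusted p = 0.95). The other bright genes also overlapped and did not pass: Cenpa had 304, 341 and 403 in LF_HF mice and 315, 369 and 438 in LF_LF mice, Tk1 had 241, 398 and 606 in LF_HF mice and 246, 362 and 496 in LF_LF mice, Tyms had 188, 233 and 259 in LF_HF mice and 220, 234 and 256 in LF_LF mice, and Mcm4 had 185, 201 and 239 in LF_HF mice and 176, 184 and 206 in LF_LF mice.

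**Figure D3:**
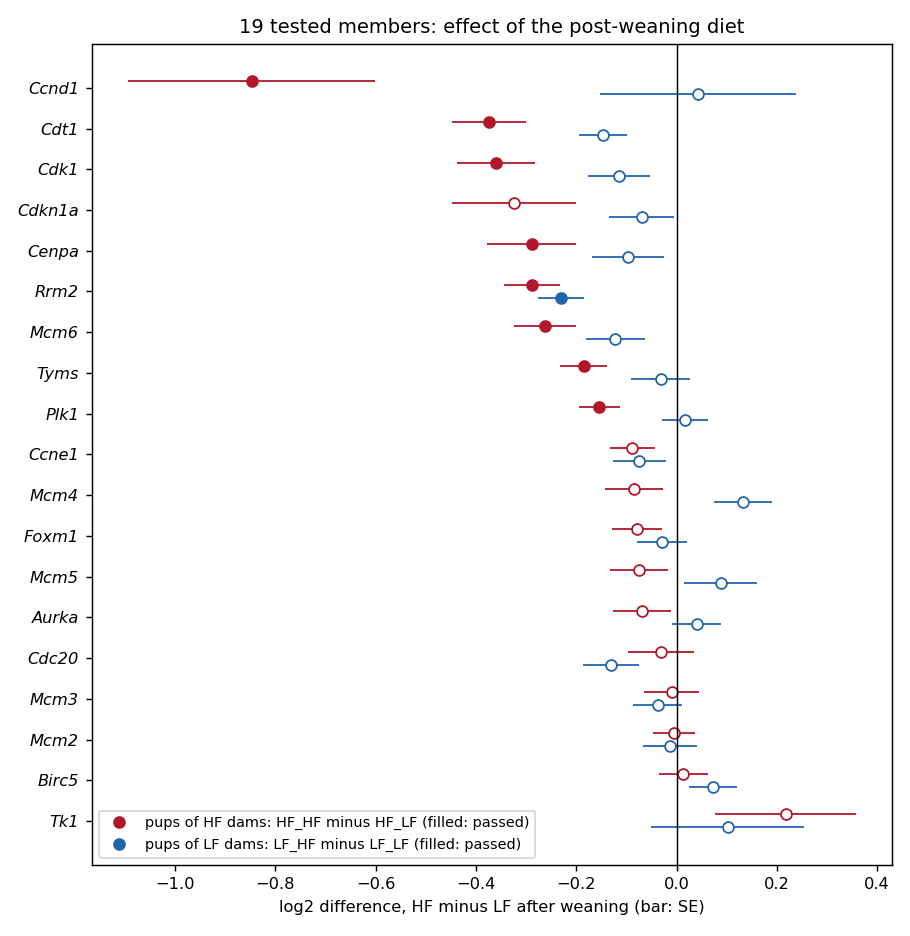
log2 difference of intensity, HF minus LF after weaning, with bars of 1 SE, for the 19 tested genes in pups born from HF fed dams (red, HF_HF minus HF_LF) and from LF fed dams (blue, LF_HF minus LF_LF); filled points passed the test. The red points of 17 genes lie below 0 and 8 are filled, whereas among the blue points only Rrm2 is filled.

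The difference between the post-weaning effects was tested as an interaction on all 36 mice. Of the 19 genes, 0 passed (limma, 6 at an unadjusted p under 0.05), where 0% of all 8535 genes did (556 at that p). The effect of the HF diet on the cell cycle genes was thus not shown to differ between mice born from HF and from LF fed dams. The interaction term was lowest in p for Plk1 (-0.17 ± 0.06, limma adjusted p = 0.637), Mcm4 (-0.22 ± 0.08, limma adjusted p = 0.648) and Ccnd1 (-0.89 ± 0.34, limma adjusted p = 0.654). A negative term means that the difference by post-weaning diet was the lower one in mice born from HF fed dams.

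Diets were also compared inside the 5 labelled cages, taken as cages of birth, with mice fed HF and mice fed LF after weaning. The 8 genes were chosen by the comparison of HF_HF with HF_LF. That comparison held the mice of cages 10, 20 and 23, 12 of its 19 mice, so the direction in these cages was largely set beforehand. Genes that did not pass are left out here. In cages 10, 20 and 23, of HF fed dams, each of the 8 genes was lower in the HF fed mice. Differences of cage means were -0.62, -0.90 and -1.74 for Ccnd1 and -0.13, -0.59 and -0.62 for Cdk1. They were -0.49, -0.22 and -0.60 for Cdt1 and -0.64, -0.19 and -0.21 for Rrm2. In cage 4, of LF fed dams, all 8 genes were lower in the HF fed mice as well. In cage 11, of LF fed dams, 6 of the 8 were lower, with Ccnd1 at 0.20 and Plk1 at 0.02. Each of these values rests on 1 to 3 mice per diet.

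**Figure D4:**
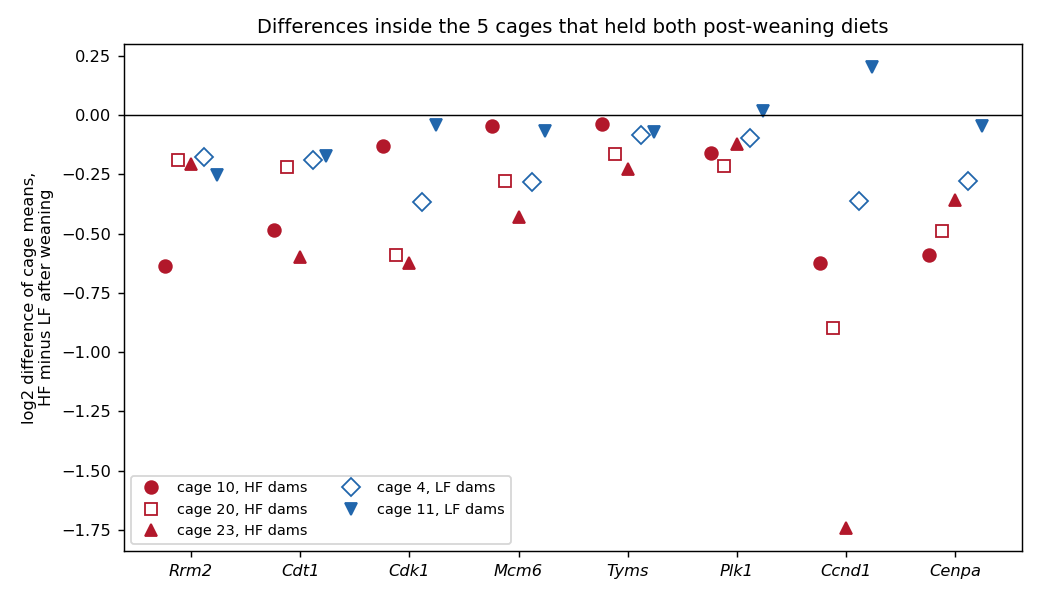
Difference of the mean log2 intensity, HF minus LF after weaning, inside each of the 5 cages that held both diets, for the 8 genes that fell in HF_HF mice (red: cages 10, 20 and 23 of HF fed dams; blue: cages 4 and 11 of LF fed dams). Red symbols lie below 0 for every gene, with the lowest value for Ccnd1 in cage 23. The genes were chosen in a comparison that held the mice of the red cages.

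The maternal effect was compared among mice that ate LF after weaning, 9 of HF_LF against 9 of LF_LF. No cell cycle gene passed (limma, 0 of 19, with 3 at an unadjusted p under 0.05), and 0% of all 8535 genes did (592 at that p). Cdt1 had 123.5, 133 and 192 in HF_LF mice, against 110.8, 124.1 and 134.5 in LF_LF mice (lowest, median, highest), and 4 of 9 HF_LF mice lay above every LF_LF mouse. Its difference was 0.26 ± 0.08 (limma adjusted p = 0.425). Cdk1 differed by 0.22 ± 0.08 (limma adjusted p = 0.623) and Cdkn1a by 0.29 ± 0.11 (limma adjusted p = 0.693). Ccnd1 had 321.5, 535 and 1403 in HF_LF mice, against 387, 454 and 674.5 in LF_LF mice, with 4 of 9 HF_LF mice above and 2 below every LF_LF mouse, and differed by 0.40 ± 0.25 (limma adjusted p = 0.808). Over the 19 genes 14 lay above 0, with a median of 0.03, against -0.0012 over all genes tested.

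Among mice that ate HF after weaning, 10 of HF_HF against 8 of LF_HF, 0 of 19 genes passed (limma, 5 at an unadjusted p under 0.05). Of all 8535 genes 0.293% passed, and 968 had an unadjusted p under 0.05 (limma). These fits treat mice of 1 cage as independent. Over all 12289 probes 33 passed, against 4 with cage as a random block and 0 with 1 mean per cage and group (limma). Mcm4, a helicase subunit, had 161.5, 180 and 208 in HF_HF mice, against 185, 201 and 239 in LF_HF mice (lowest, median, highest). In 7 of 10 HF_HF mice Mcm4 was below every LF_HF mouse, with a difference of -0.18 ± 0.06 (limma adjusted p = 0.245). Plk1 had 61.3, 70.85 and 74.3 in HF_HF mice, against 70.9, 75.35 and 80.2 in LF_HF mice (difference -0.10 ± 0.04, limma adjusted p = 0.301). Tyms had 188, 207 and 227 in HF_HF mice, against 188, 233 and 259 in LF_HF mice (difference -0.15 ± 0.06, limma adjusted p = 0.328). Ccnd1 had 229, 328 and 490.2 in HF_HF mice, against 256, 482 and 889 in LF_HF mice (difference -0.49 ± 0.20, limma adjusted p = 0.357), and 3 of 8 LF_HF mice lay above every HF_HF mouse. The 19 genes had a median of -0.02, against -0.0092 over all genes tested, with 12 below 0. The maternal and post-weaning comparisons share groups, so their values are not independent of each other.

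Across the mice, many of the highest values of these genes were in HF_LF livers. HF_LF replicate 5, of cage 23, was the highest of all 36 mice in 5 of the 21 genes above background (Cenpa, Tyms, Cdt1, Cdk1 and Aurka) and among the 3 highest in 8. Its summed endothelial markers, at 7055, were also the highest of the HF_LF group, while its summed erythroid markers, at 1148, were the lowest, and the part of either was not tested. HF_LF replicate 4, of cage 1, was the highest in Ccnd1 and, level with LF_LF replicate 6 at 85.2, in Plk1. Without HF_LF replicate 5, 6 of the 8 genes still passed in the comparison of HF_HF with HF_LF (Cdk1, Cdt1, Mcm6, Plk1, Rrm2 and Tyms). Counted over the 21 genes, HF_HF mice were among the 3 lowest of 36 in 33 cases and among the 3 highest in 8. For HF_LF mice these counts were 3 and 30, for LF_HF mice 14 and 14, and for LF_LF mice 12 and 11. The HF_LF mice were unequal: replicates 5, 4, 7, 3, 6 and 2 were among the 3 highest in 8, 6, 5, 4, 4 and 3 genes, and replicates 1, 8 and 9 in 0. The groups differ in size, and no such count was made over all genes.

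Within groups, the members varied together only in part. After removal of group means, the highest correlations of log2 intensity over the 36 mice, among 210 pairs, were those of Mcm4 with Mcm5 (r = 0.574), Ccnd1 with Mcm4 (r = 0.551) and Cenpa with Cdk1 (r = 0.524), and the lowest was that of Foxm1 with Ccne2 (r = -0.492). These are descriptions, since all pairs share arrays and normalization and most of the genes are dim.

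Another 104 genes of the cell cycle were examined as a list, of which 93 had a probe and 56 were tested. In mice born from HF fed dams 8 of the 56 fell with the HF diet and 0 rose. This was 14.3%, against 6.41% of all genes tested that fell, with a median log2 difference of -0.04 and 42 below 0. The list was chosen with earlier results of these data known and was read in the same mice, so this share is not independent support. Cdk2, the kinase of cyclin E and cyclin A, had 300.4, 364 and 419.5 in HF_HF mice, against 366, 494 and 570 in HF_LF mice (lowest, median, highest), and fell by 0.41 (SE 0.08, limma adjusted p = 0.00118). Spc25, a subunit of the kinetochore complex that binds spindle microtubules, had 71.6, 93.4 and 105 in HF_HF mice, against 88.2, 134 and 158 in HF_LF mice, and fell by 0.49 (SE 0.10, limma adjusted p = 0.0024). E2f3, a transcription factor of S phase genes, fell by 0.33 (SE 0.06, limma adjusted p = 0.00107), and all but the highest HF_HF mouse lay below the lowest HF_LF mouse, both at 87.7. Dbf4, the activator of the CDC7 kinase, Prc1, a spindle midzone protein, and Mad2l1, of the spindle checkpoint, fell by 0.28, 0.24 and 0.22 (SE 0.07, 0.07 and 0.06, limma adjusted p = 0.0123, 0.0267 and 0.0298). Without cage 23, 3 of the 8 passed (Cdk2, E2f3 and Spc25), without HF_LF replicate 5, 5 passed, and with 1 mean per cage and group 4 did.

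In mice born from LF fed dams, 1 of the 56 fell (1.79%, against 1.42% of all genes tested), again Spc25, at 69.4, 91.2 and 101 in LF_HF mice and 93.3, 115 and 130 in LF_LF mice (log2 difference -0.35 ± 0.08, limma adjusted p = 0.0128). This call was lost with cage means, with cage as a fixed block and without cage 8 or cage 9 (limma adjusted p up to 0.134 over the cages left out). In the maternal comparisons and the interaction 0 of 56 passed (limma). For the maternal effect on LF, the maternal effect on HF and the interaction, 6, 11 and 6 had an unadjusted p under 0.05. Over all 8535 genes tested 592, 968 and 556 did (limma). Of 15 target genes of p53, the transcription factor that induces Cdkn1a, 10 were tested, and 1, the death receptor gene Fas, rose in HF_HF against HF_LF (0.38 ± 0.09, limma adjusted p = 0.00688), where 11.8% of all genes tested passed in either direction. In the other comparisons 0 of the 10 passed (limma), with 3 at an unadjusted p under 0.05 in pups of LF dams and 0 in the rest. In pups of LF dams 1493 of all 8535 genes had such a p (limma).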

How the data were processed

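Liver RNA of 36 mice was hybridized by the authors to Illumina beadchips, with BeadStudio named in the submitters' processing notes (its version is not given in the sources used here). The authors deposited quantile-normalized intensity values on a linear scale (45.7 to 32949, 25697 probes), not background-subtracted. Log2 was taken with no further normalization. Gene symbols came from the platform annotation, which pairs 23978 probes with 1 symbol and 1719 with none. Probes with a median under 71.5 were left out, in place of the study's expression filter, which left 12289. The numbers of arrays and of cages limit the precision, and the maternal diet was given by dam and not by mouse.

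Groups were compared in pairs, on the mice of both groups, with limma 3.58.1 (lmFit, and eBayes with a variance trend, R 4.3.3) and Benjamini-Hochberg adjustment over all tested probes at 0.05, with the interaction on all 4 groups. The code was tested on simulated data. Genes past a test, the 3 lowest p per test and the 6 brightest genes are given with values, and of other lists up to 6 genes per comparison. E2f2 and Pold1, which also fell, are outside this rule, and Fas, Tek, Oit3 and Alas2 are named as the few list members that passed. The members and lists were chosen with earlier results of these data known. Alternatives were other filters, variance models, background subtraction, cage models (statmod 1.5.0), dimmer probes, and leaving out each mouse or cage. Mice of a group are separate animals, but mice of 1 labelled cage were taken to come from 1 birth cage and may share a dam.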

Additional observations from a re-analysis of the deposited data

Results flagged for a closer look

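Mcm6 in HF_HF replicate 3 had an intensity of 65.2, below the next lowest HF_HF mouse at 78.3, a gap of 0.473 of that group's range on the log2 scale, the scale of the tests, and of 0.425 on the linear scale, where it would not stand apart. It was the only such value among 48 sets of mice examined, 12 genes in 4 groups. Chance gives such a value in about 1 in 20 sets, so 1 among 48 is no more than chance gives. Without this mouse Mcm6 still fell in HF_HF against HF_LF, by 0.22 on the log2 scale (limma adjusted p = 0.0178).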

How the results depend on the processing

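In every alternative the count of cell cycle genes that passed stayed at 0 for both maternal comparisons and for the interaction. In pups of LF dams it was 0 with 1 mean per cage and group and with cage as a fixed block, and 0 to 1 with a cage left out. In pups of HF dams it was 2 with cage means, 3 to 8 with a cage left out and 6 to 9 with a mouse left out. Among the other cell cycle genes, the count was 1 (Mcm10) for the maternal effect on HF with all 4 groups in 1 fit and 0 to 1 with a mouse or a cage left out. It was 0 in pups of LF dams with cage means and with a fixed block, 0 to 1 with a cage and 1 to 2 with a mouse left out. In pups of HF dams it was 4 with cage means, 5 with a fixed block, 3 to 8 with a cage and 5 to 10 with a mouse left out. On dimmer probes, below the filter unless said, the sign changed for Tyms for the maternal effect on HF (0.0912, 0.0261 and 0.0052), Cdk1 (0.0392 and 0.0267), Mcm6 (0.0281) and Tyms (0.0562, on a tested probe, and 0.0117) in pups of LF dams, Cdk1 (0.0106), Tyms (0.0338 and 0.0556) and Mcm4 (0.0133 and 0.0173) in pups of HF dams, and Mcm4 for the interaction (0.0241 and 0.0059). In pups of LF dams, where none of these genes had passed, Plk1 was -0.0456 with a fixed block, -0.0032 to 0.0417 with a mouse left out and -0.0212 to 0.0698 with a cage left out, Tyms was -0.0567 to 0.0087 with a mouse left out, and Ccnd1 was -0.0993 with cage means, -0.1041 with a fixed block, -0.0655 on a dimmer tested probe, -0.082 to 0.1749 with a mouse left out and -0.1726 to 0.1749 with a cage left out. Cdc20 in pups of HF dams was -0.0628 to -0.0029 with a mouse left out and -0.0589 to 0.0013 with a cage left out. The cause of these changes was not tested, other than that cage means leave fewer values per group. By replicate number no paired analysis was possible because the numbers were given in accession order and pair no mice; mice were paired by cage instead, and with cage as a fixed block 6 genes passed in pups of HF dams and 0 in pups of LF dams. Signal limits these data, since 13 of the 19 tested genes had medians of at most 102 against a background level of 69.35.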
